A study of Mus musculus with 8 samples.

Results

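Histone lysine lactylation is placed on histones by acyltransferases and removed by deacetylases, and the 10 genes described here encode enzymes to which one of these activities has been assigned. Ep300 and Crebbp encode the large paralogous acyltransferases p300 and CBP, Kat2a and Kat2b encode the paralogs GCN5 and PCAF, and Kat5 and Kat8 encode the MYST-family acyltransferases TIP60 and MOF. Hdac1, Hdac2 and Hdac3 encode class I deacetylases, and Sirt3 encodes a sirtuin best known as the deacylase of the mitochondrial matrix. The genes were chosen by name, but earlier results of these data were known at the time. Their unique molecular identifiers (UMIs, each counting one captured RNA molecule) were read per library and per nuclear class. All 10 were among the 21110 gene symbols used, and over all libraries they held between 1958 UMIs (Kat5) and 73559 UMIs (Crebbp).

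The libraries were single-nucleus RNA sequencing (snRNA-seq) libraries of gastrocnemius muscle, the large calf muscle, from wild-type mice. The 4 groups were Old (20 months), Young (3 months), Running (mice aged 11 months at the start that ran on a treadmill for 2 months) and Sedentary (age-matched mice without training), with 2 libraries in each group, one from a 10x set and one from a second set made on the DNBelab C platform. Ageing and training could thus be examined for these genes, although the groups rest on 2 libraries each, the labels do not say whether the 2 libraries came from separate animals, and p-values measure only the spread between libraries. The assay counts nuclear RNA, so none of the values below is a protein level, an enzyme activity or a level of lactylation.

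Lactate made by glycolysis is the source of the lactyl group, and skeletal muscle produces much of it in its fast glycolytic fibres. The same enzymes also set histone acetylation: p300 and CBP act as transcriptional coactivators, GCN5 and PCAF sit in the SAGA and ATAC coactivator complexes, TIP60 in NuA4, and MOF in the MSL and NSL complexes. HDAC1 and HDAC2 work in the NuRD, Sin3 and CoREST complexes and HDAC3 in the NCoR corepressor, so a change in the RNA of one gene need not bear on lactylation alone.

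Of 65280 deposited nuclei, 64803 were kept. The 10x libraries held 10587 to 12991 nuclei with a median of 1664 to 3001 UMIs each, and those of the second set 4228 to 4772 nuclei with a median of 909 to 1689 UMIs. All 8 myofibre marker genes were detected in every library and took 3.09% to 7.20% of the UMIs, least in Old replicate 2. That library stood apart: 4137 of its 4772 nuclei (86.7%) fell in clusters that could not be named, against 2450 of 4510 (54.3%) in Young replicate 2. Pairs of 10x libraries shared 30 to 46 cell barcodes (0.282% to 0.390%).

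The genes lie on 9 chromosomes, and the positions of the ones to which most of the results refer are given on GRCm38. Ep300 lies at chr15:81585351-81652077 on the plus strand, Kat2a at chr11:100704746-100712465 on the minus strand, Kat2b at chr17:53566861-53672720 on the plus strand, Hdac1 at chr4:129516104-129542713 on the minus strand and Sirt3 at chr7:140863666-140882309 on the minus strand. Kat8 (chr7:127912516-127925837, plus strand) shares 122 bases with Prss8 on the other strand, Sirt3 shares 707 bases with Ric8a and 342 bases with Psmd13, Kat2b shares 483 bases with the pseudogene Gm6919, and Crebbp shares 2861 bases with the unreviewed transcript Gm37186 on its own strand. Kat5 (chr19:5603014-5610237, minus strand) shares 4006 bases with Rnaseh2c on the other strand, and its counts are uncertain where reads were not assigned by strand.

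Because Kat2a and Kat8 were higher in the nuclei of muscle fibres and Kat2b was lower there (below), the bases upstream of their transcription starts are shown, from RefSeq on GRCm38.p6. For Kat8 the window at its first start is printed, and for Kat2b that at its second start, and the windows are chr11:100712468-100712717 (minus strand), chr7:127912267-127912515 (plus strand) and chr17:53583876-53584125 (plus strand). Capitals mark matches, on either strand, to the letters CAGCTG (the E-box core bound by the MyoD family), AGGTCA (a core site of nuclear receptors), GGGCGG (the GC box) or CCAAT, and TATAAA was searched as well.
Kat2a: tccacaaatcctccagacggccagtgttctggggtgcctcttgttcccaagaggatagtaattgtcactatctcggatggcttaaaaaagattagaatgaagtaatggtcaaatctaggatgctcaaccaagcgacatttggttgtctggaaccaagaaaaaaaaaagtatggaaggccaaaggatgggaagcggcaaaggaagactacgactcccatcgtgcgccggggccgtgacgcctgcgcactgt
Kat8: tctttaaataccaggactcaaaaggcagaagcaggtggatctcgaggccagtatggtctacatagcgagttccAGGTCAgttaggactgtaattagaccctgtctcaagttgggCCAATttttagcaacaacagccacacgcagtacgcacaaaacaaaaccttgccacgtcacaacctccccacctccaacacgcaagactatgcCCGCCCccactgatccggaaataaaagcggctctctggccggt
Kat2b: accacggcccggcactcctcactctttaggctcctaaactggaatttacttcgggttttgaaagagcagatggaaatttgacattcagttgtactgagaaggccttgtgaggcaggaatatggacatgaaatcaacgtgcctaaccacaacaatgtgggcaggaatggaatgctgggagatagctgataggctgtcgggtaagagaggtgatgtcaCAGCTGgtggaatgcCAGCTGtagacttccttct

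The Kat2b window held the E-box core 2 times, the Kat8 window held the nuclear receptor site, the CCAAT box and the GC box once each, and the Kat2a window held none of the 5 motifs. The windows not printed differed: that at the first start of Kat2b held no E-box core and 1 CCAAT box, and that at the second start of Kat8 held 1 E-box core, 1 GC box and 1 CCAAT box but no nuclear receptor site. Over the 32851 mouse windows of 250 bases in the same table, CAGCTG was found in 13%, AGGTCA in 14.0%, GGGCGG in 32.7%, CCAAT in 33.8% and TATAAA in 12.4%. The windows of Kat2a, Kat8 and Kat2b had a GC content of 48.8%, 51.2% and 48.4% and held 11, 10 and 5 CpG dinucleotides, beside medians of 52.4% and 6 over all windows. A match is a run of letters only, and windows were used for 8 of the 10 genes, not for Hdac1 or Hdac3.

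Ageing was examined first. No writer or eraser passed the test between Old and Young muscle in the sums over nuclei. For Ep300, Crebbp and Hdac2 the levels of the 10x set and of the second set did not overlap, whatever the group. Levels are given as UMIs per 1000000 UMIs of the library (CPM), and they are compared between libraries, not between genes, since long genes give more nuclear RNA.

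Of the writers, Ep300 was at 142, 158, 109 and 126 CPM in the Old, Young, Running and Sedentary libraries of the 10x set and at 70.4, 64.6, 54.2 and 57.9 CPM in those of the second set. Crebbp was, in the same order, at 442, 529, 416 and 413 CPM and at 264, 297, 296 and 340 CPM. For both of these coactivators every 10x library lay above every library of the second set.

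Kat2a was at 19.3, 12.9, 25.1 and 13.5 CPM in the Old, Young, Running and Sedentary libraries of the 10x set and at 3.03, 6.52, 18.6 and 15.9 CPM in the second set. Its paralog Kat2b was at 151, 132, 130 and 111 CPM and at 130, 114, 105 and 96.3 CPM. Within both sets Kat2b was highest in the Old and lowest in the Sedentary library, and Kat2a was higher in the Running than in the Sedentary library. Kat5 was at 12.1, 9.38, 10.9 and 6.65 CPM and at 10.5, 17.3, 24.5 and 22.1 CPM, and Kat8 at 21.7, 25.5, 27.5 and 18.7 CPM and at 8.68, 11.7, 25.9 and 20.2 CPM. Both MYST-family genes were higher in the Running than in the Sedentary library of each set, and Kat8 was lower in the Old than in the Young library of each set.

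Of the erasers, Hdac1 was at 35.0, 29.7, 32.9 and 28.4 CPM in the Old, Young, Running and Sedentary libraries of the 10x set and at 24.6, 22.5, 29.2 and 30.7 CPM in the second set. Hdac2 was at 45.9, 46.2, 44.99 and 50.7 CPM and at 23.6, 35.3, 39.2 and 44.4 CPM. Hdac1 was higher, and Hdac2 lower, in the Old than in the Young library of each set. Hdac3 was at 42.7, 35.7, 45.1 and 43.8 CPM and at 21.0, 32.5, 56.6 and 62.6 CPM. Sirt3 was at 22.3, 16.4, 27.3 and 20.4 CPM and at 21.8, 32.0, 32.5 and 41.8 CPM. For Hdac3 and Sirt3 the Old library was the higher in the 10x set and the lower in the second set, so the sets disagreed on the direction.

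**Figure D1:**
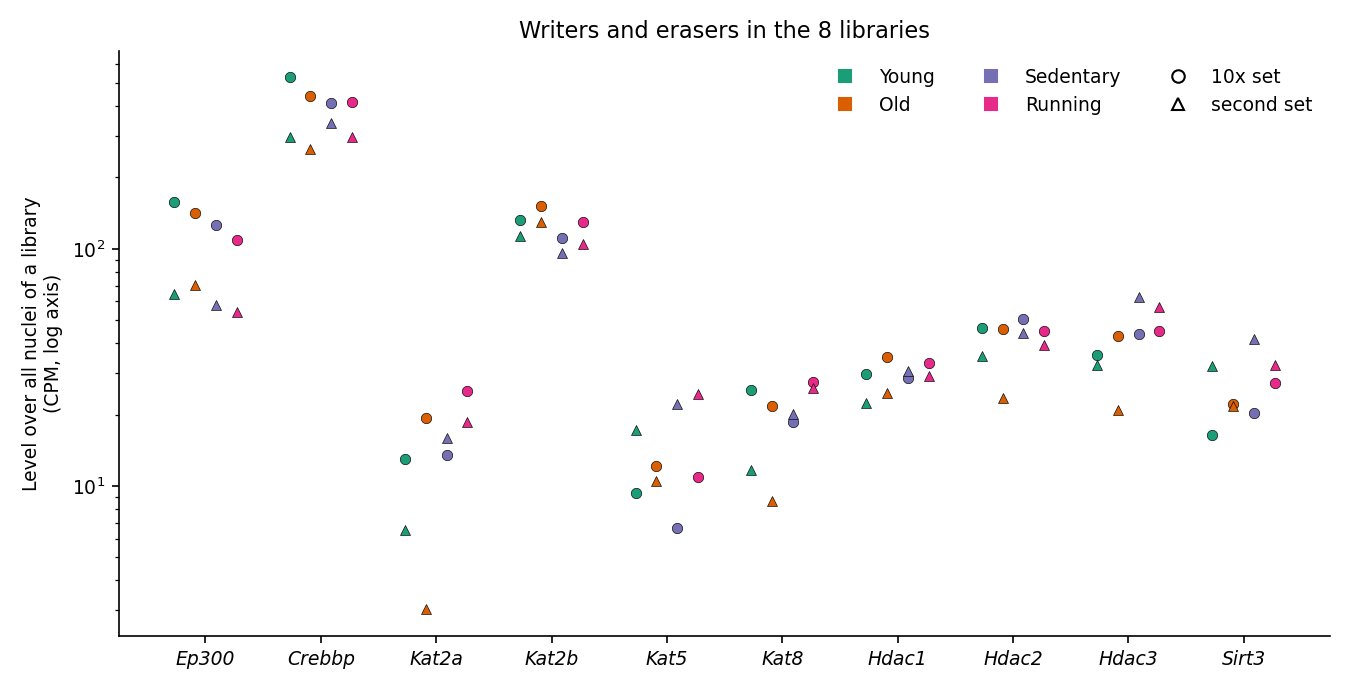
Level of each writer and eraser over all nuclei (CPM) in the 8 libraries, by group, with the 10x and the second set drawn as different symbols. Ep300 and Crebbp separate by set in every group, with Ep300 at 109 to 158 CPM in the 10x set and 54.2 to 70.4 CPM in the second set.

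By edgeR's quasi-likelihood test with library set as a term and Benjamini-Hochberg adjustment over 20322 genes, 0 of the 10 genes were called between Old and Young, where 0.0% of all genes were called and 557 genes had an unadjusted p under 0.05. None of the 10 had an unadjusted p under 0.05, and DESeq2 also called 0 genes. Without Old replicate 1, which leaves Old replicate 2 as the only Old library, 7 of the 10 and 7985 of all 20731 genes tested had an unadjusted p under 0.05 by edgeR, and 0 were called. The fitted log2 difference of Ep300, Old minus Young, was -0.42 ± 0.34 (SE, n = 2 libraries a group, edgeR adjusted p = 0.693), and that of Hdac1 was -0.19 ± 0.43 (edgeR adjusted p = 0.839). All 10 were fitted lower in Old, between -0.19 and -0.65, with a median of -0.41 beside 0.19 over all genes. The sign of that median rested on 1 library: without Old replicate 2 it was 0.08, beside -0.07 over all genes. The direction also depended on scaling, since with each library scaled to its total UMIs alone the median of all genes was 0.61 in place of 0.19, and Kat2a, Kat2b and Hdac1 were then fitted higher in Old (0.03, 0.19 and 0.19). In CPM, the difference had the same sign in both sets for 5 of the 10 genes, with Kat2b and Hdac1 higher and Crebbp, Kat8 and Hdac2 lower in Old. A shared sign over only 2 sets does not show a change, and the share over all genes was not counted.

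Training was examined with the other 4 libraries. No writer or eraser passed the test between Running and Sedentary muscle (0 of 10, where 0.0% of all genes were called by edgeR and 98 genes had an unadjusted p under 0.05; none of the 10 did, and DESeq2 called 0 of the 10). Ep300 differed by -0.13 ± 0.35 on the log2 scale (SE, n = 2 a group, edgeR adjusted p = 1.0) and Hdac1 by 0.07 ± 0.43, while the largest fitted differences were those of Kat2a (0.48 ± 0.76) and Kat8 (0.45 ± 0.57). Of the 10 genes 6 were fitted higher in Running, with a median of 0.04 beside -0.04 over all genes. In CPM, the difference had the same sign in both sets for 6 genes, with Kat2a, Kat2b, Kat5 and Kat8 higher and Ep300 and Hdac2 lower in Running. As with ageing, such a count over 2 sets does not show a change, and the share over all genes was not counted.

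Levels over all nuclei move with the mix of cells in a library, so both contrasts were repeated within single nuclear classes. Clusters were made without these genes or the other genes of the pathway, and were named by marker genes, so that a name ending in -like is a reading of markers. Between Old and Young, 0 of 10 genes were called in Type IIb-like myonuclei (background 0.495% of genes), 0 of 10 in Type IIa/IIx-like myonuclei (0.00769%), 0 of the 6 tested in nuclei of the myotendinous junction (0.0%) and 0 of the 7 tested in those of the neuromuscular junction (0.0224%). Between Running and Sedentary, 0 genes were called in the same classes (0.0991%, 0.0%, 0.0% and 0.112% of all genes) or, of 10 tested, in fibro-adipogenic progenitor (FAP)-like nuclei (0.0967%). None of the genes had an unadjusted p under 0.05 in any of the 9 fits by edgeR, and the smallest adjusted p was 0.889, for Crebbp in Type IIb-like myonuclei (Old minus Young, -0.54 ± 0.34, SE). In those myonuclei Ep300 differed by -0.14 ± 0.41 between Old and Young and by -0.35 ± 0.34 between Running and Sedentary, and Hdac1 by -0.04 ± 0.49 and -0.15 ± 0.39. Old replicate 2 held 42 Type IIb-like nuclei, so that Old rests largely on 1 library there.

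The writers and erasers did differ between kinds of nuclei. The myonuclei of muscle fibres were set against the mononuclear cells of the same library (FAPs, endothelial, immune, stem and other cells). By edgeR's main fit Kat2b was 1.74-fold lower in myonuclei, while Kat2a was 2.27-fold, Kat8 2.03-fold, Hdac3 1.79-fold and Sirt3 1.76-fold higher. The sizes depended on the setting. Over the 18 settings tried, the log2 difference ran from 0.56 to 1.77 for Kat2a and from 0.42 to 1.62 for Kat8. For Hdac3 it ran from 0.28 to 1.30, and for Sirt3 from 0.26 to 1.39. Hdac1 was fitted lower in myonuclei in all 18 settings tried and passed the test in 5 of them, that of the 10x set among them. The second set held only 73 to 285 mononuclear nuclei a library, all FAP-like or adipocyte-like, so the 10x libraries, with 2124 to 5696, carry most of this comparison.

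Kat2b was at 93.9 CPM in myonuclei and 244 CPM in mononuclear nuclei of Old replicate 1, at 76.3 and 256 in Young replicate 1, at 87.1 and 265 in Running replicate 1 and at 88.4 and 217 in Sedentary replicate 1. In the second set it was at 114 and 203 CPM in the Old, 101 and 193 in the Young, 102 and 195 in the Running and 92.7 and 253 in the Sedentary library. The 2 kinds of nuclei did not overlap in any of these values, and Kat2b was lower in myonuclei in 8 of 8 libraries (mean log2 difference -1.28 ± 0.34 SD, two-sided exact sign-flip permutation p = 0.00781, the smallest 8 libraries allow). In edgeR's quasi-likelihood fit with the library as a term, the difference was -0.79 ± 0.11 (SE, n = 8 libraries, adjusted p = 0.000152). Kat2b was lower, and called, in all 18 settings tried, with the difference between -1.30 and -0.74.

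The share of nuclei with at least 1 Kat2b UMI pointed the same way. After each nucleus of the 10x set was thinned to 500 UMIs, 4.11% ± 0.31 of myonuclei and 10.9% ± 1.26 of mononuclear nuclei (SD, n = 4 libraries) held one, with 0 of 26949 myonuclei and 10 of 16111 mononuclear nuclei left out as shallower. As deposited, the shares were 23.6% and 36.6%, at median depths of 2130 to 3753 and 1184 to 2436 UMIs a nucleus. No class is known to lack Kat2b, so a background share could not be set beside these values.

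Hdac1 was at 24.6 CPM in myonuclei and 51.3 CPM in mononuclear nuclei of Old replicate 1, at 18.9 and 54.0 in Young replicate 1, at 26.6 and 51.9 in Running replicate 1 and at 25.2 and 40.1 in Sedentary replicate 1. Every one of the 4 libraries thus had less Hdac1 in myonuclei, whereas the mononuclear nuclei of the second set held only 1 to 9 Hdac1 UMIs a library. Over all 8 libraries the fitted difference was -0.36 and did not pass edgeR's test (adjusted p = 0.210), and in the 10x set alone it was -0.41 ± 0.13 (SE, adjusted p = 0.0251). Its paralog Hdac2 averaged 45.6 ± 5.27 CPM in myonuclei and 50.6 ± 1.90 CPM in mononuclear nuclei of the 10x set (SD, n = 4).

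Kat2a showed the opposite pattern to Kat2b. It was at 22.5 CPM in myonuclei and 14.6 CPM in mononuclear nuclei of Old replicate 1, at 13.9 and 11.2 in Young replicate 1, at 27.2 and 17.5 in Running replicate 1 and at 14.96 and 8.56 in Sedentary replicate 1. It was higher in myonuclei in each of these libraries, although the values of different libraries overlap. The fitted difference was 1.18 ± 0.23 (SE, n = 8, edgeR adjusted p = 0.000956). The MOF gene Kat8 differed by 1.02 ± 0.20 (edgeR adjusted p = 0.00096), and averaged 25.9 ± 4.91 against 17.8 ± 1.79 CPM in the 10x set (SD, n = 4).

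Hdac3 differed by 0.84 ± 0.22 (SE, edgeR adjusted p = 0.00619), with means of 44.3 ± 4.42 and 36.0 ± 3.54 CPM in myonuclei and mononuclear nuclei of the 10x set. Sirt3 differed by 0.82 ± 0.18 (edgeR adjusted p = 0.00239), with means of 23.1 ± 5.28 and 18.2 ± 3.66 CPM. Its level was not even over the myonuclei, with means of 17.7 CPM in Type IIb-like and 38.1 CPM in Type IIa/IIx-like nuclei of the 10x set. In CPM, Kat2a, Kat8 and Hdac3 were higher in myonuclei in 4 of 4 libraries of the 10x set and Sirt3 in 3 of 4. These 4 genes were fitted higher in all 18 settings and called in 17, the exception being scaling to total UMIs alone. Over the CPM of all 8 libraries none of the 4 passed the exact two-sided sign-flip test (p = 0.172 for Kat8, 0.188 for Sirt3, 0.297 for Kat2a and 0.398 for Hdac3), with the few mononuclear UMIs of the second set included.

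Crebbp (0.42 ± 0.12, edgeR adjusted p = 0.0123) and Hdac2 (0.41 ± 0.14, adjusted p = 0.0242) were also called higher in myonuclei by this fit, but both turned to lower when libraries were scaled to total UMIs alone (-0.09 and -0.14), as did the uncalled Ep300 (0.21, then -0.31) and Kat5 (0.23, then -0.35). In plain CPM Ep300 averaged 126 ± 20.3 in myonuclei and 157 ± 22.6 in mononuclear nuclei of the 10x set (SD, n = 4). Over the CPM of all 8 libraries Ep300 and Hdac2 were each lower in myonuclei in 7 (exact two-sided sign-flip p = 0.03125 for each). Crebbp and Kat5 were each lower in 6 (p = 0.109 and 0.211 by the same exact test). The signs of the 2 tests thus differ. No direction is therefore given for these 4 genes.

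Altogether 6 of the 10 genes were called higher and 1 lower in myonuclei, where 59.0% of the 13928 genes tested were called, 31.6% higher and 27.3% lower, so being called is common in this comparison. The median of the 10 was 0.41 beside 0.14 over all genes. Scaled to total UMIs alone, the median over all genes was -0.43, 56.0% of genes were called (12.8% higher, 43.1% lower), and 2 of the 10 genes, Kat2b and Hdac1, were called, both lower. In the 10x set alone 7 were called higher and 2 lower (71.8% of genes called, 34.8% higher and 37.0% lower).

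RNA of muscle fibres was also counted in mononuclear nuclei. The CPM of Myh4, the myosin heavy chain of Type IIb fibres, in mononuclear nuclei was 0.152 to 0.343 times that in myonuclei in the 10x set and 0.914 to 1.25 times in the second set. With that share subtracted from the 10x mononuclear sums, Kat2b differed by -0.93, Hdac1 by -0.41, Kat2a by 1.77 and Sirt3 by 1.39, each called by edgeR. Without adipocyte-like nuclei, the differences in the 10x set were -0.77 for Kat2b, -0.38 for Hdac1 and 1.23 for Kat2a, each called.

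**Figure D2:**
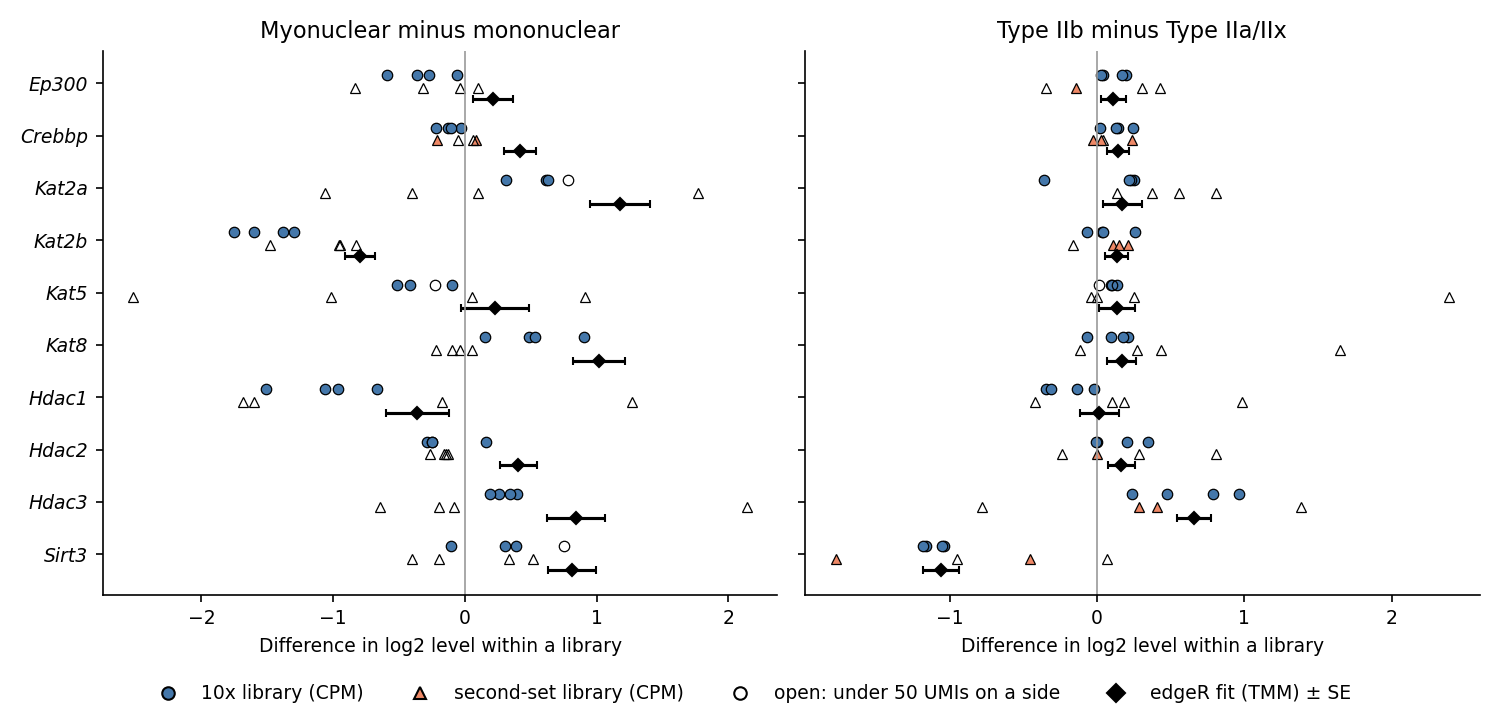
Log2 ratio of CPM within each library for each writer and eraser, where 0 is no difference. The left panel sets myonuclei against mononuclear nuclei, the right panel Type IIb-like against Type IIa/IIx-like myonuclei. The sets have different symbols, and open points rest on fewer than 50 UMIs on a side. Diamonds give edgeR's fit with its SE, which is scaled differently from CPM. On the left, Kat2b lies below 0 in all 8 libraries and Kat2a, Kat8 and Hdac3 above 0 in the 4 libraries of the 10x set.

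The balance within paralog pairs does not depend on the scaling of a library, since both genes are counted in the same nuclei. The ratio of Kat2a to Kat2b UMIs (geometric mean of the libraries) was 0.219 in myonuclei and 0.0513 in mononuclear nuclei of the 10x set, a log2 difference of 2.09 ± 0.10 (SD) that had the same sign in 4 of 4 libraries (exact sign-flip p = 0.125, the smallest that 4 libraries allow). Over all 8 libraries the difference was 1.62 ± 1.09 (SD), positive in 7 of 8 (exact two-sided sign-flip p = 0.0156, 0.0469 after adjustment over 3 pairs). With a pseudocount of 5 in place of 0.5 UMIs it was 0.90 (adjusted p = 0.0703 by the same exact test).

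The ratio of Hdac1 to Hdac2 was 0.521 in myonuclei and 0.970 in mononuclear nuclei of the 10x set, lower in myonuclei in 4 of 4 libraries (log2 difference -0.90 ± 0.25 SD, exact p = 0.125). Over 8 libraries the difference was -0.63 ± 0.95 (SD) and did not pass the exact sign-flip test (p = 0.102, adjusted p = 0.102). For Ep300 to Crebbp it was -0.22 ± 0.32 (exact p = 0.0625, adjusted p = 0.0938), negative in 5 of 8 libraries.

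Of the other genes of the pathway, the partners of these enzymes were tested in the same fit of myonuclei against mononuclear nuclei. Of 17 SAGA and ATAC subunits, the complexes of Kat2a and Kat2b, 7 were called higher and 0 lower (median 0.46 beside 0.14 over all genes, of which 31.6% were called higher and 27.3% lower), led by the adaptors Tada2a (0.95 ± 0.17, edgeR adjusted p = 0.000521) and Tada1 (0.80 ± 0.17). Of 10 MSL and NSL subunits, the partners of Kat8, 6 were called higher and 0 lower (median 0.56), among them Mcrs1 (1.16 ± 0.24) and Kansl2 (1.10 ± 0.14). Of 13 NuA4 subunits, the partners of Kat5, 3 were called higher and 0 lower (median 0.08), led by Vps72 (0.90 ± 0.21) and Epc1 (0.61 ± 0.15). Scaled to total UMIs alone, where 12.8% of all genes were called higher and 43.1% lower, the differences were 0.42 for Tada2a, 0.23 for Tada1, 0.58 for Mcrs1, 0.56 for Kansl2, 0.34 for Vps72 and 0.09 for Epc1.

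Of 22 tested subunits of NuRD, Sin3 and CoREST, 5 were called higher and 3 lower (median 0.14), with the remodeller Chd3 16.95-fold lower in myonuclei (-4.08 ± 0.33, edgeR adjusted p = 4.75e-06) and Sap30 higher (1.43 ± 0.35). Of 7 NCoR genes 2 were called higher, Tbl1xr1 (0.85 ± 0.13) and the corepressor Ncor1 (0.37 ± 0.12, but -0.13 when scaled to total UMIs alone). Of 8 other class I, II and IV deacetylases 4 were called higher and 1 lower, namely Hdac7 (-1.68 ± 0.34), with Hdac4, a regulator of the denervation response in muscle, higher (1.34 ± 0.19). Of 6 other sirtuins 4 were called higher and 0 lower, led by the mitochondrial Sirt4 (1.10 ± 0.22) and Sirt5 (0.68 ± 0.20).

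Of 10 other acyltransferases, 5 were called higher and 1 lower, with Kat14, the second acyltransferase of ATAC, at 1.197 ± 0.13 and Kat6b at 0.78 ± 0.18 (SE). Of 7 tested genes for tRNA synthetases and for enzymes of lactyl-CoA or lactoylglutathione, 6 were called higher and 0 lower (median 0.90). They included Hagh, glyoxalase II, at 1.26 ± 0.15, and Aars, the alanyl-tRNA synthetase to which a lactyltransferase activity has been assigned, at 1.204 ± 0.16 (edgeR adjusted p = 0.000106). Of the readers, Dpf2 was called higher (0.76 ± 0.23). None of the genes of these lists was called by edgeR between Old and Young or between Running and Sedentary in the sums over nuclei.

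Within muscle fibres, Type IIb-like myonuclei of the fast glycolytic fibres were set against Type IIa/IIx-like myonuclei of the more oxidative ones in the same library. The Type IIb-like class was mixed in its markers. A 10x cluster given that name (3537 nuclei, 1424 of them in Sedentary replicate 1) had Mybpc1 among its top genes. Mybpc1 was a marker used for Type IIa/IIx-like nuclei. Sirt3 was 2.08-fold lower and Hdac3 1.58-fold higher in Type IIb-like myonuclei, and the other 8 writers and erasers did not pass the test. Both differences were called in all 16 settings tried, between -1.14 and -0.88 for Sirt3 and between 0.61 and 0.83 for Hdac3.

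Sirt3 was at 19.0 CPM in Type IIb-like and 42.3 CPM in Type IIa/IIx-like myonuclei of Old replicate 1, at 14.7 and 30.1 in Young replicate 1, at 22.9 and 47.5 in Running replicate 1 and at 14.3 and 32.5 in Sedentary replicate 1. In the second set it was at 26.2 and 52.4 in Young, 19.6 and 67.1 in Running and 39.5 and 54.0 CPM in Sedentary. In each of these 7 libraries Sirt3 was lower in Type IIb-like myonuclei, and in the 10x set the highest Type IIb-like value lay below the lowest Type IIa/IIx-like value. Old replicate 2 had 0 Sirt3 UMIs in its 42 Type IIb-like nuclei, which allows a level of up to 73.4 CPM (3 UMIs, counting error only), and 2 UMIs in Type IIa/IIx-like nuclei. The fitted difference was -1.06 ± 0.12 (SE, n = 8 libraries, edgeR adjusted p = 1.75e-06), and the mean over libraries was -0.94 ± 0.54 (SD, lower in 7 of 8, exact two-sided sign-flip p = 0.0156).

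Hdac3 was at 54.3 CPM in Type IIb-like and 27.8 CPM in Type IIa/IIx-like myonuclei of Old replicate 1, at 38.2 and 32.3 in Young replicate 1, at 51.5 and 29.7 in Running replicate 1 and at 53.6 and 38.5 in Sedentary replicate 1. In the second set it was at 58.5 and 22.6 in Young, 58.6 and 44.0 in Running and 68.7 and 56.0 CPM in Sedentary, with 0 UMIs in the Type IIb-like nuclei of Old replicate 2. It was thus higher in Type IIb-like myonuclei in 7 of 8 libraries, by an amount that varied more than that of Sirt3. The fitted difference was 0.66 ± 0.12 (SE, edgeR adjusted p = 0.000237), and the exact sign-flip test on the 8 differences in CPM gave p = 0.0859.

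**Figure D3:**
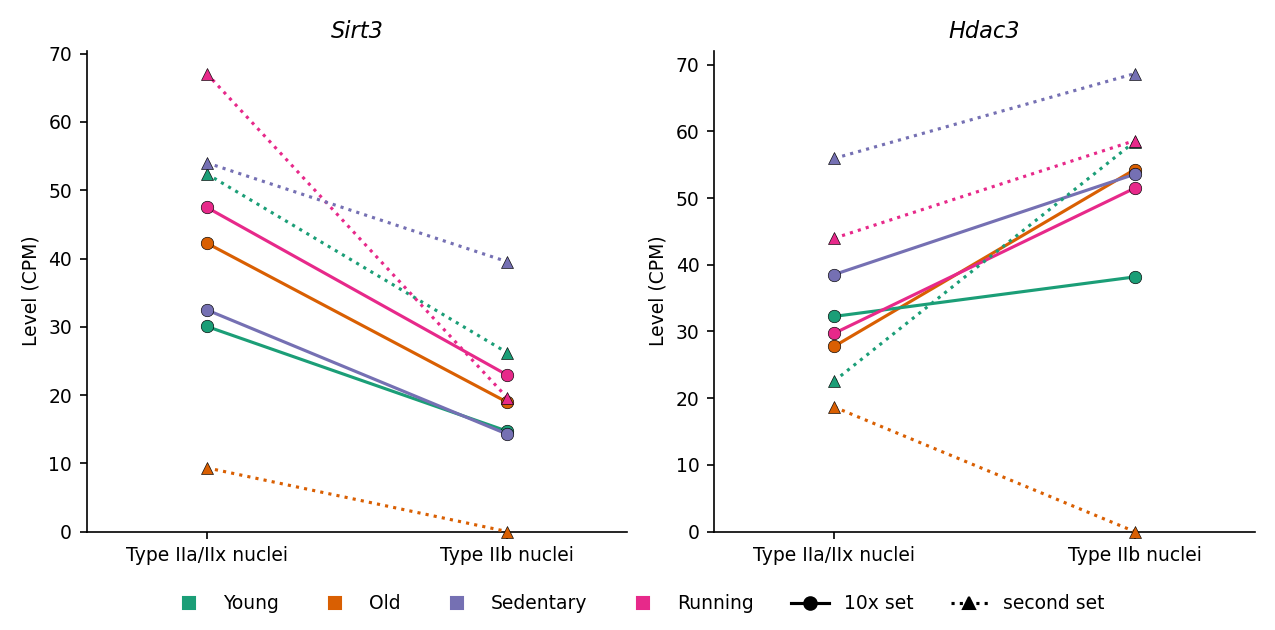
Sirt3 and Hdac3 in Type IIb-like and Type IIa/IIx-like myonuclei (CPM), with a line joining the values of each library. In the 4 libraries of the 10x set Sirt3 goes from 14.3 to 22.9 CPM in Type IIb-like up to 30.1 to 47.5 CPM in Type IIa/IIx-like myonuclei, and Hdac3 the opposite way.

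The other writers and erasers were fitted between 0.02 (Hdac1) and 0.17 (Kat2a, Kat8), none called by edgeR. Of 10 genes 2 were thus called, where 31.9% of the 11556 genes tested were called (14.2% higher, 17.8% lower), and their median was 0.14 beside 0.00 over all genes. In the 10x set alone the same 2 genes were called (30.8% of genes called, 14.6% higher and 16.2% lower), Sirt3 at -1.04 ± 0.09 and Hdac3 at 0.70 ± 0.11 (SE). Scaled to total UMIs alone, they were again the 2 genes called (32.6% of genes called, 12.3% higher and 20.3% lower).

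Around Sirt3 and Hdac3, Sirt5 (-0.94 ± 0.15, SE, edgeR adjusted p = 5.93e-05) and Sirt7 (-0.38 ± 0.13) were the 2 of 5 tested other sirtuins called, both lower in Type IIb-like myonuclei. Of the NCoR genes, 2 were called higher, among them Tbl1x, a core subunit with Hdac3, at 1.01 ± 0.09 (edgeR adjusted p = 6.1e-08). Of the 8 other deacetylases 1 was called higher and 3 lower, led by Hdac7 (-1.57 ± 0.17) and Hdac9 (-0.37 ± 0.12). Of 7 tested genes of the synthetase and lactyl-CoA list 2 were called, both lower, namely Acss2, an acyl-CoA synthetase, 3.51-fold lower (-1.81 ± 0.09, edgeR adjusted p = 1.21e-10), and Suclg1 (-0.41 ± 0.10).

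In the remaining lists the counts stand beside the 31.9% of all genes called between fibre types. Of 17 SAGA and ATAC genes 2 were called higher and 1 lower (Tada2a 0.73 ± 0.07, Eny2 -0.41 ± 0.12), of 13 NuA4 genes 3 higher (Morf4l2 0.52 ± 0.10, Vps72 0.51 ± 0.12), of 10 MSL and NSL genes 1 higher and 2 lower (Kansl3 -0.64 ± 0.08, Ogt 0.54 ± 0.08). Of 21 tested NuRD, Sin3 and CoREST genes 2 were called, both higher (Sap30 1.12 ± 0.29, Gatad2a 0.41 ± 0.10), and of 10 other acyltransferases 1 higher and 2 lower (Hat1 -0.42 ± 0.09, Kat14 -0.35 ± 0.08). Of 4 readers 0 were called by edgeR, the smallest p being that of Trim33 (0.18 ± 0.09, adjusted p = 0.128).

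The 16 named classes of the 10x set were sorted by mean level for each gene. Nearly all neighbouring classes then overlapped in their library values (at most 1 of 15 neighbouring pairs lay apart). Sorting places like levels side by side, so this overlap does not show that classes further apart are alike. Kat2b, for example, was at 207.1 to 278.5 CPM in FAP-like and 75.5 to 96.6 CPM in Type IIb-like nuclei. Kat2b was highest in adipocyte-like nuclei (349 ± 61.3 CPM, SD, n = 4), which lay above FAP-like nuclei (247 ± 29.7 CPM) in every library value. It was next in T cell-like (221 ± 85.2, n = 3) and muscle stem cell-like nuclei (202 ± 20.5), and lowest in Type IIa/IIx-like (82.6 ± 3.19), myotendinous junction (85.8 ± 14.0) and Type IIb-like myonuclei (86.9 ± 8.69). Hdac1 was also highest in adipocyte-like nuclei (69.0 ± 23.1 CPM), followed by B cell-like nuclei (68.4 ± 31.1, n = 2), and was lowest at the myotendinous junction (20.6 ± 4.67), with the top and bottom classes 3.35-fold apart.

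Ep300 ran from 281 ± 113 CPM in B cell-like nuclei (n = 2 libraries) through T cell-like (216 ± 33.4) and macrophage-like nuclei (216 ± 43.2) down to 118 ± 15.9 CPM at the neuromuscular junction. Its paralog Crebbp varied least, 1.68-fold, from 517 ± 87.3 CPM in muscle stem cell-like to 307 ± 102 CPM in Schwann cell-like nuclei (64 nuclei). Kat5 was highest in muscle stem cell-like nuclei (22.0 ± 4.39 CPM) and lowest in tenocyte-like nuclei, where it had 8 UMIs in all. Kat8 was highest at the neuromuscular junction (31.6 ± 9.97) and the myotendinous junction (30.3 ± 9.60), both of them specialised zones of the fibre.

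Kat2a was at 22.5 ± 13.8 CPM in T cell-like nuclei, where it rested on 8 UMIs, at 21.2 ± 11.2 in muscle stem cell-like nuclei and between 14.2 and 25.5 in Type IIb-like myonuclei, and these did not differ beyond their spread. Hdac2 ran from 61.9 ± 10.9 CPM in B cell-like to 35.5 ± 7.41 CPM in macrophage-like nuclei. Hdac3 ran from 49.4 ± 7.56 CPM in Type IIb-like to 23.1 ± 2.40 CPM in tenocyte-like nuclei. Sirt3 was highest in slow (39.1 ± 2.37, n = 2) and Type IIa/IIx-like myonuclei (38.1 ± 8.20), then T cell-like nuclei (37.2 ± 16.0), and Type IIb-like myonuclei (17.7 ± 4.07) came in place 11 of the 16 classes. Schwann cell-like nuclei, with 1 UMI, had the least Sirt3.

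**Figure D4:**
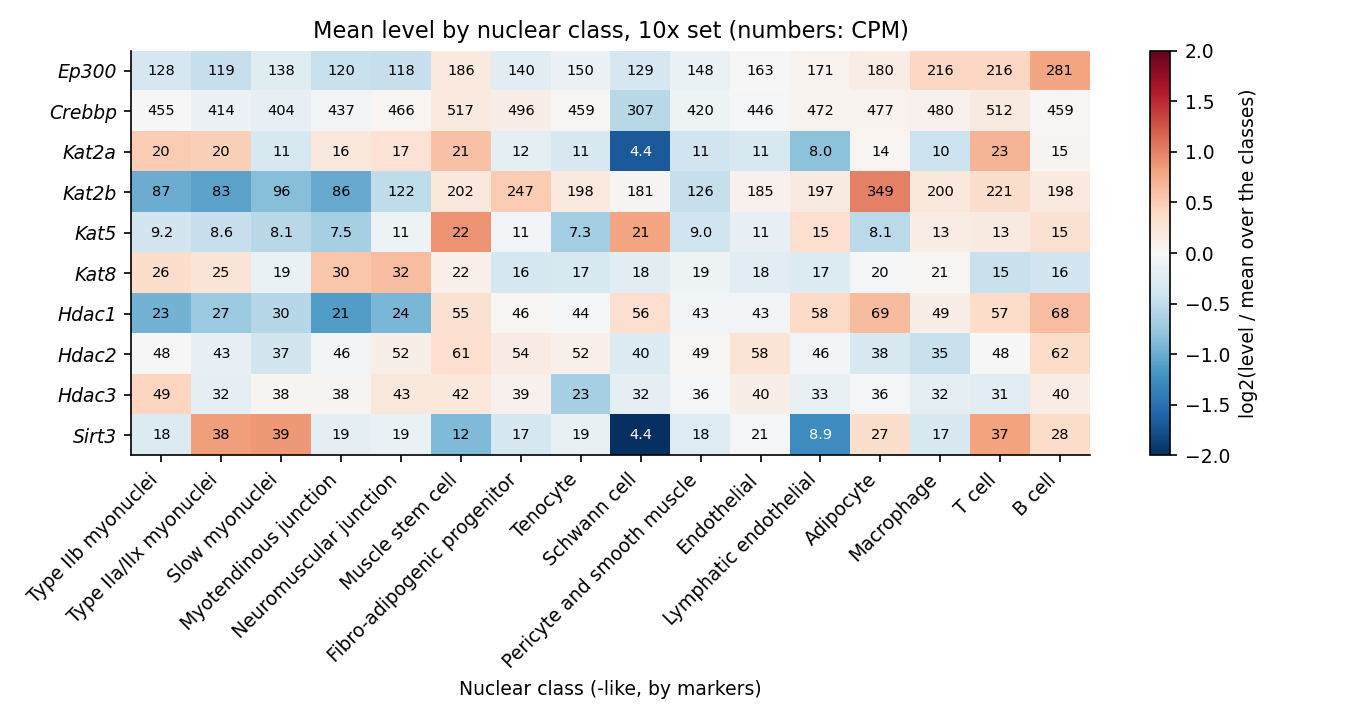
Mean level (CPM) of each writer and eraser in the 16 named nuclear classes of the 10x set. Colour gives the log2 ratio of a level to the gene's mean over the classes, on the same scale for every gene. Kat2b is highest in adipocyte-like nuclei (349 CPM), apart from the next class. Hdac1 is highest in adipocyte-like and B cell-like nuclei (69.0 and 68.4 CPM). Sirt3 is highest in slow and Type IIa/IIx-like myonuclei (39.1 and 38.1 CPM) and Hdac3 in Type IIb-like myonuclei (49.4 CPM). For Hdac1, Sirt3 and Hdac3 the library values overlap those of the next class.

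The genes whose log2 CPM was most like that of Ep300 over 72 sums of a class in a library were Arid1a, a subunit of the BAF chromatin remodeller (Pearson's r = 0.883), Nsd1, a histone H3 lysine methyltransferase (0.872), and the transcription factor Foxo3 (0.862). For Hdac1 they were Flot2, a membrane scaffold protein gene (r = 0.814), Fam160b1 (0.780) and Ano10 (0.774). They were the highest of 6565 genes compared, and the sums share libraries, sets and depth, so these correlations describe the libraries and carry no test.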

How the data were processed

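Nuclei of mouse gastrocnemius were sequenced in 8 libraries. Per the labels and the study's methods, the authors aligned the 10x libraries to mm10 with Cell Ranger 6.1.2 and the second set to mm10 with PISA, and deposited filtered matrices of UMI counts per gene and nucleus; whether introns and strand entered the counting of the second set is not given in the sources used here. The members and all gene lists were chosen with earlier results of these data known.

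Here, nuclei with 200 to 6000 genes and under 6% mitochondrial UMIs were kept. Of 21207 symbols shared by all libraries, all but the 12 mitochondrial genes and the 85 genes of ribosomal proteins were used. Each set was clustered (scanpy 1.11.5, Leiden at a resolution of 1.0, 2000 variable genes, 30 principal components) without the 10 genes and the genes of the pathway lists, and clusters were named from marker lists by a rule set after the clusters were seen. No doublets were removed in the main analysis, and the nuclei with the top 6% of doublet scores were dropped in an alternative. Counts were summed per library, or per library and class, and tested in edgeR 4.0.16 (TMM scaling, filterByExpr, quasi-likelihood F-test, Benjamini-Hochberg threshold 0.05, R 4.3.3), with the library set as a term between groups and the library as a term within libraries. Single values were tested by exact sign-flip permutation of the log2 differences, with 0.5 UMIs added. DESeq2 1.42.0, other scalings and filters, other cluster settings and leaving out each library in turn served as alternatives. CPM is per 1000000 UMIs of the 21110 symbols used, and floors and intervals cover counting error only.

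All 10 writers and erasers are named whatever their values. From each pathway list at most the 2 genes with the largest fitted difference among those called are named, or the 1 with the smallest p, and some genes of the lists are not reported here. Replicate numbers follow accession order and pair no samples.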

Additional observations from a re-analysis of the deposited data

Results flagged for a closer look

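The difference of Hdac2 between Type IIb-like and Type IIa/IIx-like myonuclei had opposite signs in the libraries of contrasted groups. The log2 difference averaged 0.50 over the 2 Old libraries, each above 0, and -0.12 over the 2 Young libraries, each below 0 (Young replicate 1 at -0.0011). It averaged -0.0064 over the 2 Running libraries and 0.32 over the 2 Sedentary libraries, again with opposite signs in the 2 groups. Neither difference between groups was tested, the Running values lay within 0.01 of 0, and Old replicate 2 held 2 Hdac2 UMIs in 42 Type IIb-like nuclei. Hdac2 itself did not pass edgeR's test between these myonuclei over all libraries.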

How the results depend on the processing

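Scaling to total UMIs only, restriction to nuclei of named classes, the 10x set without adipocyte-like nuclei and the subtraction of background RNA were chosen after seeing the data. No writer or eraser was called between Old and Young or between Running and Sedentary under any of the 18 settings, but fitted signs moved. Scaled to total UMIs only, Old minus Young was 0.029 for Kat2a, 0.195 for Kat2b and 0.19 for Hdac1, and in named classes it was 0.15 for Kat2a and 0.09 for Kat2b. Running minus Sedentary was 0.003 for Crebbp and 0.049 for Hdac3 with the 4 libraries alone, and for Sirt3 it was -0.051 with no library set term, -0.006 without the highest doublet scores and -0.05 in named classes. With the 4 libraries alone, 4 genes were called in the ageing contrast and 81 in the training contrast. Leaving out each library in turn gave 0 to 8 and 0 to 427 genes (427 without Sedentary replicate 2). The Old minus Young differences then ranged from -2.18 to 0.63 for Kat2a, -0.52 to 0.001 for Kat2b, -1.65 to 0.35 for Kat5, -0.73 to 0.16 for Hdac1, -1.56 to 0.24 for Hdac3 and -1.17 to 0.15 for Sirt3. The Running minus Sedentary differences ranged from -0.29 to 0.056 for Ep300, -0.43 to 0.33 for Crebbp, -0.26 to 1.61 for Kat2a, -0.22 to 1.23 for Kat5, -0.091 to 1.21 for Kat8, -0.30 to 0.53 for Hdac1, -0.46 to 0.21 for Hdac2, -0.54 to 0.60 for Hdac3 and -0.44 to 0.56 for Sirt3.

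For myonuclei against mononuclear nuclei, 2 genes were called when scaled to total UMIs only, and Ep300 was then at -0.31, Crebbp at -0.086, Kat5 at -0.35 and Hdac2 at -0.14. In CPM under the exact sign-flip test they were at -0.30, -0.076, -0.48 and -0.165. Between fibre types 6 genes were called with no filter on low counts and 4 with clustering at a resolution of 0.5, while Hdac1 was at -0.031 scaled to total UMIs only, -0.13 in the 10x set and -0.014 at that resolution, and between -0.075 and 0.11 leaving out each library. The Kat2a to Kat2b balance was 2.095 in the 10x set, where 4 libraries cannot pass an exact test, and 0.899 with a pseudocount of 5. With that pseudocount the balances of Ep300 to Crebbp (-0.379) and Hdac1 to Hdac2 (-0.667) passed the test. Shares of nuclei with a Kat2b UMI were 23.6% and 36.6% as deposited. The cause of these changes was not tested. Counts limit the second set most, where a mononuclear sum held 0 to 11 UMIs of Kat2a, Kat8, Hdac1, Hdac3 or Sirt3.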
